A study of Mus musculus with 8 samples.

Results

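The genes described here carry fatty acids into the hepatocyte, hold them in the cytosol and join them to coenzyme A. They are *Cd36*, *Slc27a2* and *Slc27a4* for uptake, *Fabp1*, *Fabp2* and *Fabp4* for binding, and *Acsl1*, *Acsl3*, *Acsl4* and *Acsl5* for activation. The 10 genes were chosen by name, through the Ensembl identifiers that the GRCm38 annotation gives them, out of 45706 identifiers in the count data. All 10 passed the filter on low counts, which kept 15491 genes. Poly(A) RNA was sequenced from the livers of 8 male mice of the strain labelled C56B6/J, and 4 livers were labelled *Srsf10-kd* and 4 *Ctrl*. In the labels the genotype of the first group is Srsf10KD and that of the second is WT. Every mouse received a liver-tropic AAV through the tail vein at 6 weeks of age, which carried GFP and a short hairpin RNA behind the chicken β-actin promoter, a promoter that is not restricted to hepatocytes. The hairpin was directed at *Srsf10*, which encodes a splicing and polyadenylation factor, in one group and was a control hairpin in the other. All mice were moved to a diet with 60% of calories from fat 4 weeks after the injection and were kept on it for 12 weeks, so the data hold no liver from a mouse on chow and none without AAV. Each column is the liver of 1 mouse.

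Long-chain fatty acids cross the plasma membrane with the help of CD36 and of the fatty acid transport proteins of the SLC27A family, several of which are also acyl-CoA synthetases. Inside the cell they bind to small fatty acid binding proteins, of which FABP1 is the main one in hepatocytes. Long-chain acyl-CoA synthetases of the ACSL family then make the acyl-CoA that enters β-oxidation or glyceride synthesis. Many of these genes, *Fabp1*, *Acsl1*, *Cd36* and *Slc27a2* among them, are textbook targets of PPARα, the nuclear receptor that switches on fatty acid use in liver, and *Fabp4* and *Cd36* are also targets of PPARγ.

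Gene counts summed to 50456404 in the shallowest liver and to 59697241 in the deepest. Levels are given in CPM, counts scaled to a common library size with edgeR's TMM factors, as mean ± SD over the 4 livers of a group. *Srsf10*, the gene the hairpin is directed at, was at 34.3, 34.0, 41.0 and 36.5 CPM in *Srsf10-kd* 1 to 4 and at 31.6, 33.7, 35.3 and 30.9 CPM in *Ctrl* 1 to 4. On the log2 scale the difference, *Srsf10-kd* minus *Ctrl*, was 0.15 (standard error, SE, 0.10, adjusted p = 0.378, edgeR). The count of *Srsf10* over the whole gene was thus not lower under the knockdown label, and the groups are named here by their labels. The paper reports less SRSF10 protein by western blot and less *Srsf10* RNA by qPCR in *Srsf10-kd* livers. It does not say whether the sequenced livers were among those assayed. Why the count differs from the qPCR was not tested. On the first principal component, *Srsf10-kd* 3 stood at -67.4, against -1.92 to -11.5 in the other *Srsf10-kd* livers, and the values without it are given below for the genes that move most. Hepatocyte markers were high in every liver, with *Alb* at 45845 to 83145 CPM. In whole liver, fewer cells of a type and less RNA per cell cannot be told apart.

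The promoter of *Fabp1* is shown because it alone among the members' promoter windows holds a DR1, the element that PPARα binds together with RXR and that HNF4α also binds. A DR1 was searched as 2 copies of AGGTCA separated by 1 base, on both strands, with at most 1 mismatch over the copies. Windows ran from 250 bases before to 50 bases after the start of each RefSeq gene on GRCm38.p6, and 9 of the 10 genes had at least 1 window, *Acsl1* having 2. No window of *Fabp4* was in the RefSeq table. Of all 32851 windows, 182 (0.554%) held a DR1. The stretch below lies at chr6:71199779-71199826 on the plus strand, and capitals mark the DR1 letters, which read on the opposite strand with 1 mismatch and start 67 bases before the RefSeq start. The stretch ends just before the start that GENCODE gives the gene.
*Fabp1*: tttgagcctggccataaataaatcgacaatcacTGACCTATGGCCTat

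The letters TATAAA stood 30 bases before the RefSeq start, beyond the end of the stretch shown, and 2733 windows (8.32%) held them anywhere on the gene strand. A match gives letters only, and the windows of the other members without one say nothing about sites elsewhere in those genes. *Ppara* itself was at 88.4, 84.6, 77.8 and 82.3 CPM in *Srsf10-kd* 1 to 4 and at 177, 208, 168 and 234 CPM in *Ctrl* 1 to 4. All 4 *Srsf10-kd* livers were below all 4 *Ctrl* livers. The log2 fold change of *Ppara* was -1.24 (SE 0.13, adjusted p = 0.0166, edgeR), with 8 livers of 8 in that order. The call was lost without *Srsf10-kd* 1, *Srsf10-kd* 2, *Srsf10-kd* 4 or *Ctrl* 2 (adjusted p = 0.0823, 0.0536, 0.0969 and 0.106), while the log2 fold change stayed between -1.31 and -1.15 with any liver left out.

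Against that change of *Ppara*, 0 of the 10 uptake, binding and activation genes passed an adjusted p of 0.05 with edgeR, where 11 of 15491 genes (0.071%) did, all of them lower. At an unadjusted p under 0.05, 1 of the 10 was called, *Fabp4*, where 21.8% of all genes were. *Fabp4* was also the only one of the 10 that DESeq2 called, and DESeq2 called 890 of 15466 genes (5.75%). For none of the 10 were the 4 livers of one group all above the 4 of the other, where 6.73% of all genes were so ordered with *Srsf10-kd* higher and 7.53% with *Srsf10-kd* lower. The 3 binding protein genes had log2 fold changes above 0 and the 7 uptake and activation genes below 0, with a median of -0.10 over the 10 and of 0.01 over all genes tested.

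**Figure D1:**
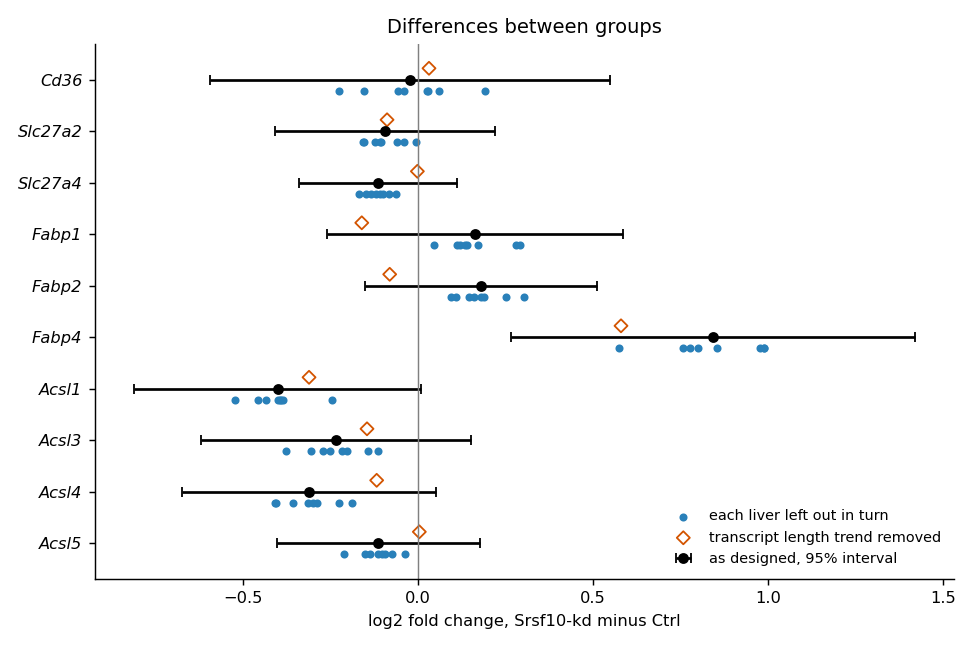
Log2 fold change of the 10 genes, *Srsf10-kd* minus *Ctrl*. Black points with bars are the edgeR estimates with 95% confidence intervals over 4 livers per group, blue points leave out each liver in turn and open diamonds are the estimates with the dependence on transcript length taken out; the interval of *Fabp4* alone lies wholly to one side of 0, and the diamonds of *Fabp1* and *Fabp2* lie below 0.

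The levels of the 10 genes spanned more than 3 orders of magnitude when CPM was divided by transcript length in kb. *Fabp1*, the abundant binding protein of hepatocytes, stood at 10268 ± 1949 CPM per kb over the 8 livers. *Slc27a2*, which encodes a very long-chain acyl-CoA synthetase and transport protein, stood at 852 ± 100 CPM per kb, and *Acsl1*, the main liver synthetase, at 627 ± 129 CPM per kb. *Slc27a2* was above *Acsl1* in each of the 8 livers, although the ranges of their levels over livers overlapped. The intestinal type binding protein gene *Fabp2* followed at 208 ± 32.6 CPM per kb, above *Acsl5* at 85.2 ± 9.78 CPM per kb in all 8 livers.

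*Cd36* was at 58.6 ± 15.8 CPM per kb, and *Acsl5* was above it in 7 of the 8 livers, so these neighbours were not separated by the spread between livers. *Fabp4*, best known from adipocytes, macrophages and capillary endothelium, was at 26.2 ± 12.0 CPM per kb. It was below *Cd36* in each of the 8 livers, although their ranges over livers overlapped. Lengths are those of the longest coding transcript, and since all annotated exons together cover 4489 bases for *Fabp4* against 896 in that transcript, and 10483 against 3897 for *Acsl1*, the places of these genes in the order depend on the transcript taken. The lowest levels were those of *Slc27a4* (11.2 ± 0.94), *Acsl4* (8.93 ± 1.83) and *Acsl3* (4.66 ± 0.90 CPM per kb). *Slc27a4* was above *Acsl4* in 7 of 8 livers with overlapping ranges, and *Acsl4* was above *Acsl3* in every liver without overlap. The smallest count of any of the 10 genes in a liver was 646, for *Acsl3*, where counting error alone is 3.93%, against a coefficient of variation between livers of 19.3%.

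**Figure D2:**
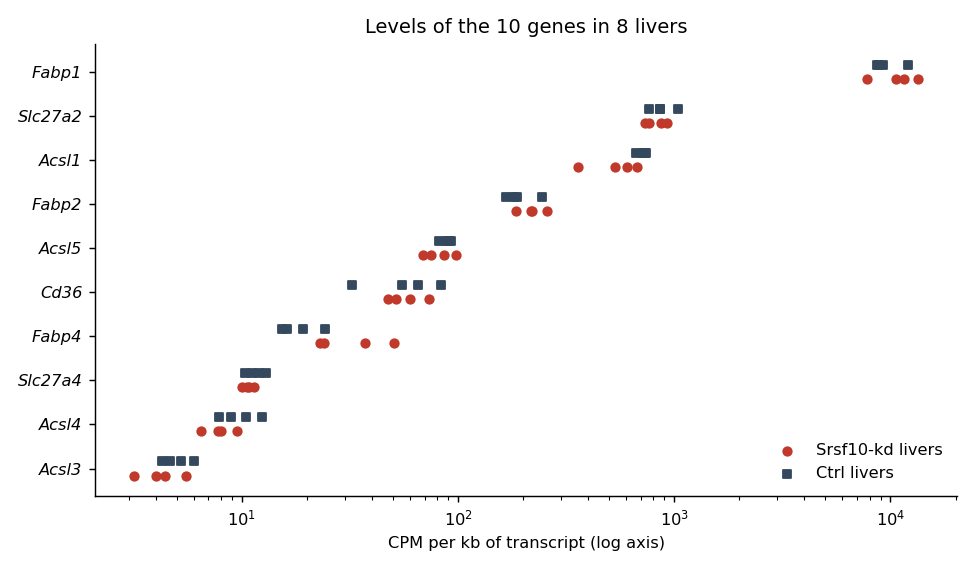
Level of each gene in each of the 8 livers, in CPM per kb of its longest coding transcript on a log axis. Red circles are the *Srsf10-kd* livers and dark squares the *Ctrl* livers. *Fabp1* sits above every other gene. The points of *Slc27a2* and *Acsl1*, of *Acsl5* and *Cd36*, of *Cd36* and *Fabp4* and of *Slc27a4* and *Acsl4* share part of their range.

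*Cd36* (ENSMUSG00000002944, chr5:17781690-17888801, minus strand, 15 exons in the longest coding transcript) encodes the scavenger receptor that facilitates fatty acid uptake. It was at 161, 249, 205 and 176 CPM in *Srsf10-kd* 1 to 4 and at 221, 284, 188 and 110 CPM in *Ctrl* 1 to 4. The lowest and the highest of the 8 livers were both *Ctrl* livers, and the *Srsf10-kd* livers lay between them. The means were 197.6 ± 38.4 and 201 ± 72.6 CPM (SD, n = 4 each). The difference on the log2 scale was -0.02 (SE 0.26, adjusted p = 0.963, edgeR). The 95% interval of the ratio ran from 0.661 to 1.46, so ratios within these bounds were not excluded at that confidence. The sign of the difference turned with the liver left out, and the log2 fold change was 0.19 without *Ctrl* 2.

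*Slc27a2* (ENSMUSG00000027359, chr2:126552407-126588243, plus strand, 10 exons) was at 2705, 2230, 2140 and 2543 CPM in *Srsf10-kd* 1 to 4 and at 2507, 2228, 2501 and 3032 CPM in *Ctrl* 1 to 4. Both groups had livers near 2230 CPM, and the groups overlapped over most of their range. On the log2 scale *Slc27a2* differed by -0.09 (SE 0.14, adjusted p = 0.697, edgeR), with a 95% interval of the ratio from 0.753 to 1.17. *Slc27a4* (ENSMUSG00000059316, chr2:29802634-29817522, plus strand), the transport protein best known from enterocytes and skin, was the least variable of the 10, with a coefficient of variation of 8.39% over the 8 livers. It was at 43.9, 46.3, 40.6 and 43.0 CPM in the *Srsf10-kd* livers and at 48.6, 45.4, 42.0 and 52.3 CPM in the *Ctrl* livers. *Srsf10-kd* 3 was the lowest and *Ctrl* 4 the highest, and the groups overlapped. *Slc27a4* had a log2 fold change of -0.12 (SE 0.10, adjusted p = 0.493, edgeR), with a ratio between 0.790 and 1.08 at 95% confidence, the narrowest interval of the 10.

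**Figure D3:**
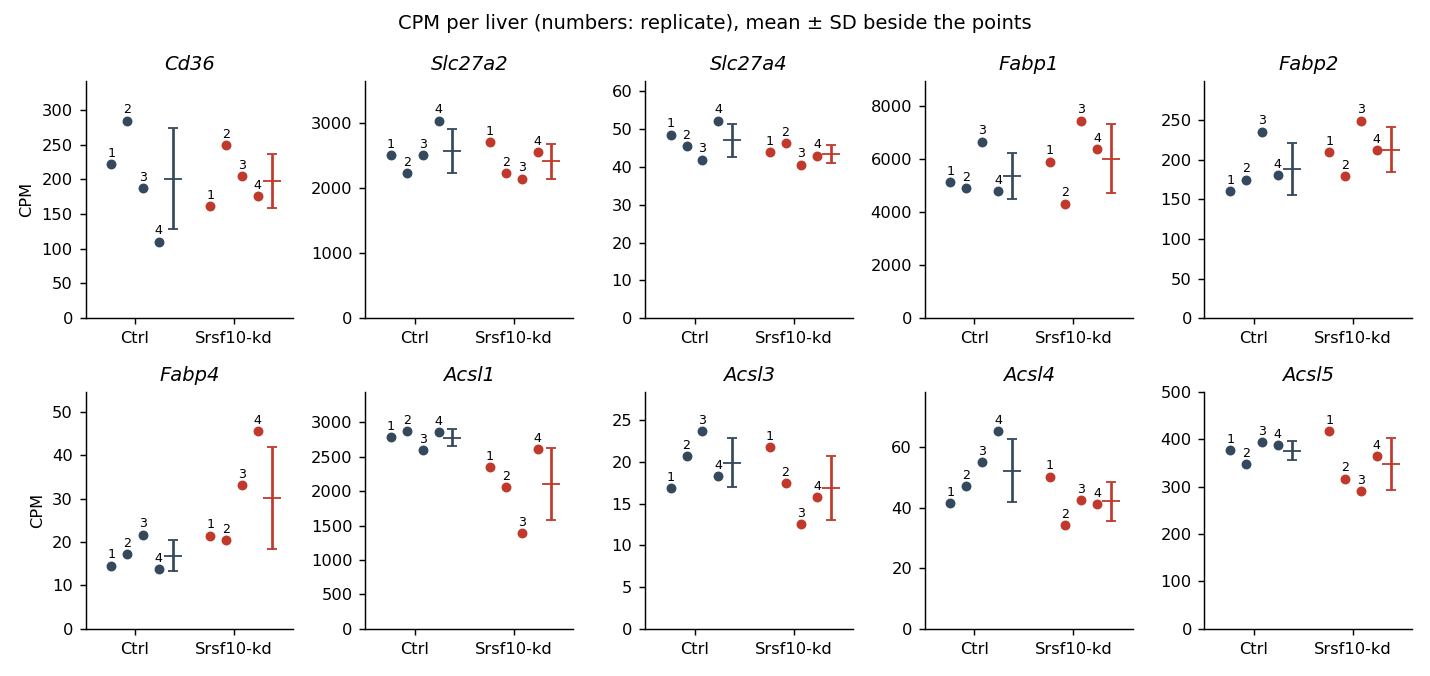
CPM of each of the 10 genes in each liver, with replicate numbers beside the points and the mean ± SD (n = 4) to the right of each group; every vertical axis starts at 0. In all 10 panels at least 1 *Srsf10-kd* liver lies within the range of the *Ctrl* livers or the reverse, and *Srsf10-kd* 3 is the lowest of the 8 livers in 5 panels.

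*Fabp1* (ENSMUSG00000054422, chr6:71199827-71205023, plus strand, 4 exons) was at 5891, 4308, 7434 and 6354 CPM in *Srsf10-kd* 1 to 4 and at 5124, 4884, 6645 and 4786 CPM in *Ctrl* 1 to 4. The lowest and the highest liver were both *Srsf10-kd* livers. *Fabp1* had a log2 fold change of 0.16 (SE 0.19, adjusted p = 0.611, edgeR), and the ratio lay between 0.834 and 1.501 at 95% confidence, which leaves out a fall as large as that of *Ppara*, whose ratio was 0.424 (0.348 to 0.515). *Fabp2* (ENSMUSG00000023057, chr3:122895072-122899506, plus strand, 4 exons) was at 210, 180, 250 and 212 CPM in the *Srsf10-kd* livers and at 161, 175, 236 and 181 CPM in the *Ctrl* livers. Replicate 3 was the highest of each group for both *Fabp1* and *Fabp2*, and the groups overlapped for both. *Fabp2* had a log2 fold change of 0.18 (SE 0.15, adjusted p = 0.471, edgeR), with a ratio between 0.900 and 1.42.

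*Fabp4* (ENSMUSG00000062515, chr3:10204088-10208576, minus strand, 4 exons) had the largest difference of the 10. It was at 21.5, 20.5, 33.1 and 45.5 CPM in *Srsf10-kd* 1 to 4 and at 14.5, 17.3, 21.7 and 13.7 CPM in *Ctrl* 1 to 4. *Ctrl* 3 was above *Srsf10-kd* 1 and 2, so the groups overlapped, and *Srsf10-kd* 4 was the highest liver. The means were 30.2 ± 11.7 and 16.8 ± 3.60 CPM (SD, n = 4 each). The fitted log2 fold change of *Fabp4* was 0.84 (SE 0.26, 95% interval 0.26 to 1.42), with an unadjusted p of 0.00876 and an adjusted p of 0.143 by edgeR. A two-sided exact permutation test, with 70 ways to assign the livers, gave p = 0.0857, where 0.0286 is the smallest it can give. DESeq2 gave an adjusted p of 0.0407, and limma-voom with sample quality weights one of 0.0566.

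The part of single livers and of other cell types in the *Fabp4* difference was not tested, and the values that moved with it are these. Without *Srsf10-kd* 4 its log2 fold change was 0.57 (adjusted p = 0.252, edgeR). *Srsf10-kd* 4 also had the most *Adipoq*, which encodes adiponectin, at 2.21 CPM against 0.05 to 0.60 in the other 7 livers, and the most *Plin1* (1.07 CPM) and *Retn* (0.855 CPM). The fat hormone gene *Lep* was at 0 to 0.13 CPM in the 8 livers and highest in *Srsf10-kd* 2. *Cfd* was highest in *Srsf10-kd* 3, at 31.5 CPM against 6.34 CPM in *Srsf10-kd* 4. *Adrb3* was highest in *Ctrl* 1 (7.93 CPM) and *Cidec* in *Ctrl* 4 (142 CPM). Of the 7 adipocyte markers 5 were tested, 4 with log2 fold changes above 0 (*Adipoq* 1.38, *Cfd* 1.32, *Plin1* 1.11 and *Adrb3* 0.19) and 1 below (*Cidec* -0.83), with a median of 1.11. None of them had an unadjusted p under 0.05, where 21.8% of all genes did. The sum of the 7 adipocyte markers was 50.7 to 81.6 CPM in *Srsf10-kd* and 60.7 to 150 CPM in *Ctrl*, most of it *Cidec*, a lipid droplet gene that fatty hepatocytes also express. Without *Cidec* the sum was 7.08 to 36.7 CPM in *Srsf10-kd* and 6.84 to 19.5 CPM in *Ctrl*, and the groups overlapped with and without it. Of the 7 lipid-associated macrophage markers, 6 had log2 fold changes above 0, 4 of them with an unadjusted p under 0.05. At that threshold 11.2% of all genes were higher and 10.6% lower. The sum of the 7 markers was 75.1 to 107 CPM in *Srsf10-kd* and 57.7 to 71.2 CPM in *Ctrl*, without overlap. The largest term was *Spp1*, which is also a cholangiocyte marker, and without it the sums overlapped, at 47.1 to 65.6 CPM in *Srsf10-kd* and 39.3 to 53.4 CPM in *Ctrl*. The 10 general macrophage and Kupffer cell markers summed to 211 to 385 against 257 to 380 CPM, with overlap, and 0 of them had an unadjusted p under 0.05.

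The 10 endothelial markers summed to 260 to 298 CPM in *Srsf10-kd* and 277 to 316 CPM in *Ctrl*, with overlap, but their members moved apart. At an unadjusted p under 0.05, *Lyve1* (log2 fold change 0.57), *Emcn* (0.55) and *Pecam1* (0.30) were higher, and *Stab2* (-0.57) and *Oit3* (-0.26) were lower. Of all genes, 11.2% were higher and 10.6% lower at this threshold. The 6 cholangiocyte markers all had log2 fold changes above 0 and summed to 46.9 to 69.2 CPM in *Srsf10-kd* and 31.8 to 39.3 CPM in *Ctrl*, without overlap also when *Spp1* was left out (19.0 to 24.5 against 12.7 to 17.6 CPM). The enterocyte sum was almost wholly *Apoa4*, which liver expresses, at 1249 CPM on average in *Srsf10-kd* and 2285 CPM in *Ctrl* (log2 fold change -0.87), and the 4 other tested enterocyte markers had log2 fold changes above 0 at levels near 1 CPM or below. The hepatocyte, stellate cell and lymphocyte sums overlapped between the groups. The hepatocyte sum was mostly *Alb*. Of its 8 markers, 4 had log2 fold changes above 0 and 4 below. *Asgr1* (0.49) was higher and *Hnf4a* (-0.50) lower at an unadjusted p under 0.05 (edgeR). The largest stellate cell term was *Dcn*, and 6 of those 9 markers were above 0 and 3 below. *Rgs5* (-0.38) alone of the 9 had an unadjusted p under 0.05.

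*Acsl1* (ENSMUSG00000018796, chr8:46471037-46536051, plus strand, 21 exons) had the largest negative difference of the 10. It was at 2350, 2063, 1393 and 2608 CPM in *Srsf10-kd* 1 to 4 and at 2790, 2871, 2602 and 2854 CPM in *Ctrl* 1 to 4. *Srsf10-kd* 4 was just above *Ctrl* 3, and the other *Srsf10-kd* livers were below all *Ctrl* livers, with *Srsf10-kd* 3 far below the rest. The means were 2104 ± 523 and 2779 ± 123 CPM (SD, n = 4 each). The fitted log2 fold change of *Acsl1* was -0.40 (SE 0.18, unadjusted p = 0.0538, adjusted p = 0.236, edgeR), and the ratio lay between 0.570 and 1.01 at 95% confidence. The exact permutation test gave p = 0.0571. Without *Srsf10-kd* 3 the log2 fold change was -0.25 (adjusted p = 0.358, edgeR), and without *Srsf10-kd* 3 and *Ctrl* 3 together it was -0.28 (adjusted p = 0.214, edgeR).

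*Acsl4* (ENSMUSG00000031278, chrX:142317993-142390535, minus strand, 16 exons), which encodes the synthetase that prefers arachidonate, was at 50.3, 34.3, 42.5 and 41.2 CPM in the *Srsf10-kd* livers and at 41.4, 47.3, 55.0 and 65.3 CPM in the *Ctrl* livers. *Srsf10-kd* 1 was above 2 of the *Ctrl* livers, and the groups overlapped. *Acsl4* had a log2 fold change of -0.31 (SE 0.16, adjusted p = 0.275, edgeR), with a ratio between 0.627 and 1.04. *Acsl3* (ENSMUSG00000032883, chr1:78657825-78707743, plus strand, 16 exons), whose protein sits on the endoplasmic reticulum and on lipid droplets, was at 21.8, 17.5, 12.6 and 15.8 CPM in the *Srsf10-kd* livers and at 16.9, 20.7, 23.7 and 18.3 CPM in the *Ctrl* livers. *Srsf10-kd* 3 was again the lowest. *Acsl3* had a log2 fold change of -0.23 (SE 0.17, adjusted p = 0.419, edgeR), and it was -0.02 without *Srsf10-kd* 3 and *Ctrl* 3. The paper names *Acsl3* among genes with more polyadenylation within introns in *Srsf10-kd* livers. Counts with 1 number per gene do not show such polyadenylation, and it was not analysed here.

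*Acsl5* (ENSMUSG00000024981, chr19:55251938-55297720, plus strand, 22 exons), a synthetase of mitochondria and endoplasmic reticulum, was at 417, 317, 291 and 364 CPM in the *Srsf10-kd* livers and at 377, 347, 393 and 387 CPM in the *Ctrl* livers. The highest and the lowest liver were both *Srsf10-kd* livers. For *Acsl5* the log2 fold change was -0.11 (SE 0.13, adjusted p = 0.599, edgeR), with a ratio between 0.755 and 1.13. Exons of *Acsl5*, *Acsl3*, *Acsl1* and *Slc27a2* overlap those of *Zdhhc6*, *Utp14b*, *Gm45244* and *Gm26697*, and 3.11%, 3.0%, 8.77% and 9.15% of their stretches of 75 bases are shared with these genes. *Gm45244* was not among the identifiers of the count data. The paper names a directional library kit, and *Zdhhc6*, *Gm45244* and *Gm26697* lie on the opposite strand to the members they overlap. *Utp14b* lies on the same strand as *Acsl3*. The strand setting of the counting is not given in the sources used here, so reads of the shared stretches are uncertain.

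Within each family the relative make-up was described per length, as the share of each gene in the summed level of its family. *Acsl1* made up 84.8 ± 2.42% of the ACSL sum in *Srsf10-kd* and 87.3 ± 1.05% in *Ctrl*, and *Acsl5* 13.2 ± 1.97% and 10.9 ± 0.86%. The share of *Acsl5* was highest in *Srsf10-kd* 3, at 15.7%, and the groups overlapped for both genes. *Slc27a2* made up 63.3 ± 4.99% of the SLC27A sum in *Srsf10-kd* and 64.9 ± 3.17% in *Ctrl*, and almost all the rest was *Slc27a5*, the bile acid and very long-chain acyl-CoA synthetase of liver, at 34.9 ± 5.22% and 33.2 ± 3.24%.

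*Fabp1* made up 97.6 ± 0.21% and 97.7 ± 0.17% of the FABP sum. The share of *Fabp4* was 0.219, 0.286, 0.269 and 0.431% in *Srsf10-kd* 1 to 4 and 0.172, 0.213, 0.197 and 0.173% in *Ctrl* 1 to 4. All 4 *Srsf10-kd* livers were above all 4 *Ctrl* livers in this share, the lowest of them (0.219%) by little over the highest *Ctrl* liver (0.213%). The CPM of *Fabp4* itself overlapped between the groups. The share also moves with *Fabp1*, which was at 4308 CPM in *Srsf10-kd* 2 and at 6645 CPM in *Ctrl* 3. The shares depend on the length taken. With the length of all annotated exons in place of the longest coding transcript, *Acsl1* made up 70.3 ± 3.92% and 74.3 ± 1.82%, *Acsl5* 25.5 ± 3.09% and 21.7 ± 1.46%, and *Fabp4* 0.0604 ± 0.0183% and 0.0377 ± 0.0040% in *Srsf10-kd* and *Ctrl*.

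**Figure D4:**
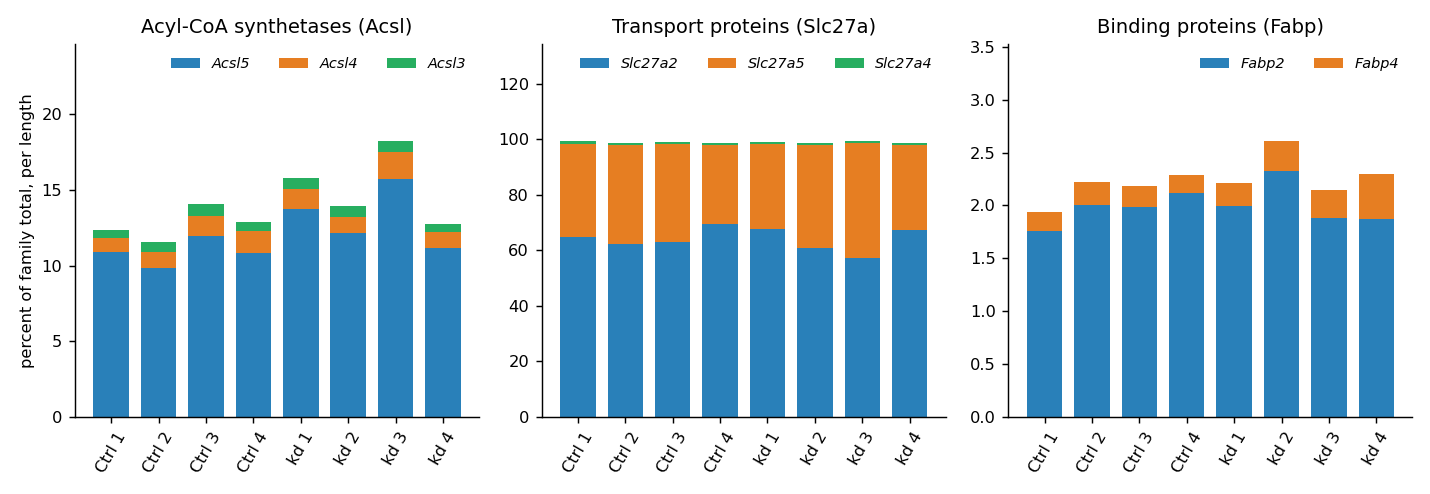
Share of each gene in the summed CPM per kb of its family, in percent, as stacked bars for the 8 livers (kd is *Srsf10-kd*). The remaining share is *Acsl1* in the left panel and *Fabp1* in the right panel; *Acsl5* is largest in *Srsf10-kd* 3 at 15.7%, and *Fabp4* is largest in *Srsf10-kd* 4 at 0.431%.

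The sign of the difference ran with transcript length among the 10 genes. The 3 binding protein genes have transcripts of 553 to 965 bases and log2 fold changes above 0, and the other 7 have transcripts of 2918 to 5280 bases and log2 fold changes below 0. The same order held over all genes, where the median log2 fold change was 0.33 among the genes with the shortest transcripts (up to 1472 bases), -0.12 between 3363 and 4809 bases and -0.25 from 4810 bases upwards. With the dependence of each library on length taken out, the log2 fold change was -0.16 for *Fabp1* and -0.08 for *Fabp2*, below 0 in place of above, 0.58 for *Fabp4* (adjusted p = 0.299, edgeR), -0.31 for *Acsl1* (adjusted p = 0.389, edgeR) and -0.12 for *Acsl4*. The slope of log2 counts on log2 length was 0.35 to 0.52 in the *Srsf10-kd* livers and 0.51 to 0.68 in the *Ctrl* livers, and whether it comes from the livers or from the libraries was not tested.

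**Figure D5:**
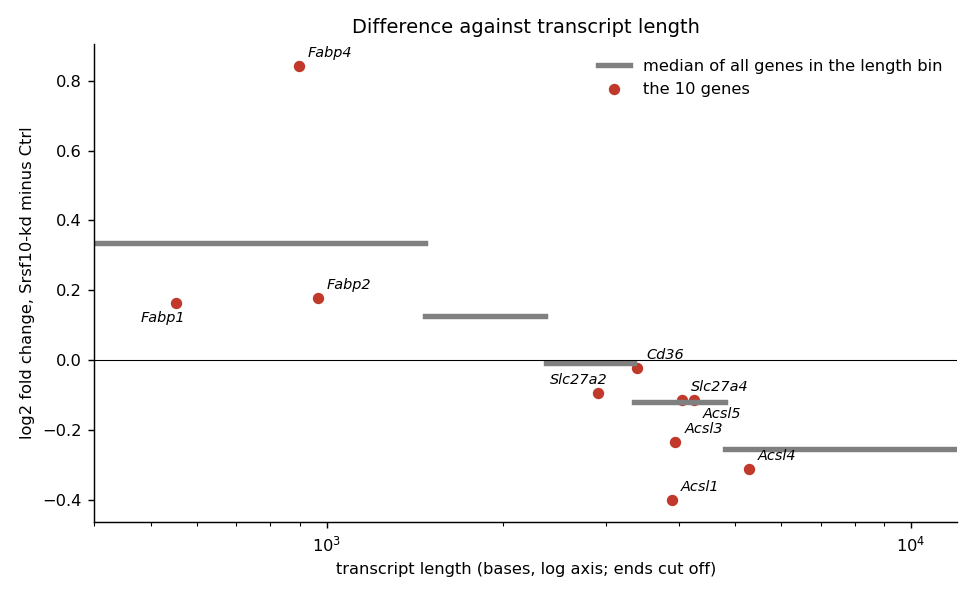
Log2 fold change (*Srsf10-kd* minus *Ctrl*) of the 10 genes against transcript length in bases on a log axis, with the median of all genes in each of 5 bins of length as grey bars. *Fabp1* and *Fabp2* lie below the grey bar of their length at 0.33 and *Fabp4* above it, while *Acsl1* lies below the bar of its length at -0.12.

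The livers also differed beyond their groups. *Srsf10-kd* 3 was the lowest of the 8 livers for *Slc27a2*, *Slc27a4*, *Acsl1*, *Acsl3* and *Acsl5* and the highest for *Fabp1* and *Fabp2*. Without it, the log2 fold change was 0.04 for *Fabp1* in place of 0.16, 0.10 for *Fabp2* in place of 0.18, -0.12 for *Acsl3* in place of -0.23, -0.04 for *Acsl5* in place of -0.11 and -0.04 for *Slc27a2* in place of -0.09. *Ctrl* 4 was the highest for *Slc27a2*, *Slc27a4* and *Acsl4* and the lowest for *Cd36* and *Fabp4*. The genes most like each member over the 8 livers, by Pearson's r of log2 CPM among 10966 other genes, are given as a description, since the points share their libraries and the length trend. *Nectin3* was most like *Cd36* (r = 0.978), and *Tagln* (0.975), *Vim* (0.969) and *Gpx3* (0.959) were most like *Fabp4*. *Rcn3* was most like *Fabp1* (r = 0.981), *Timm17b* most like *Fabp2* (0.990), *Agap2* most like *Slc27a2* (0.986) and *Fam53b* most like *Slc27a4* (0.989). Among the synthetases, *Ice2* was most like *Acsl1* (r = 0.981), *Btnl9* most like *Acsl3* (0.964), *Adam23* most like *Acsl4* (0.992) and *Ddx41* most like *Acsl5* (0.972).

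Of 33 further uptake, binding and activation genes, 24 were tested, 11 with log2 fold changes above 0 and 13 below, with a median of -0.05. None passed the adjusted p of 0.05 with edgeR. At an unadjusted p under 0.05, 4 were higher and 1 was lower, where 11.2% of all genes were higher and 10.6% lower, so the list stood near the background. Of those named here, DESeq2 called *Dbi* and *Cav1*, and limma-voom, which called 11.7% of all genes, called *Dbi* (adjusted p = 0.0172), *Cav1* (0.00816) and *Acss3* (0.0296). *Dbi*, which encodes the acyl-CoA binding protein that carries the product of the synthetases, was at 529, 464, 776 and 595 CPM in *Srsf10-kd* 1 to 4 and at 395, 389, 394 and 365 CPM in *Ctrl* 1 to 4. All *Srsf10-kd* livers were above all *Ctrl* livers. The log2 fold change of *Dbi* was 0.62 (SE 0.16, adjusted p = 0.119, edgeR; exact permutation p = 0.0286), and with the length trend removed it was 0.28, its transcript being 569 bases long. *Acbd6*, another acyl-CoA binding protein gene, was likewise without overlap, with a log2 fold change of 0.39 (adjusted p = 0.179, edgeR), 0.61 with the length trend removed and 0.22 without *Srsf10-kd* 3, its highest liver. The remaining gene of the 4 was *Fabp6*, the ileal bile acid binding protein gene, which was low in liver, with a log2 fold change of 0.74 (adjusted p = 0.223, edgeR).

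*Cav1*, which encodes the coat protein of caveolae and is abundant in endothelium and adipocytes, was at 27.3, 20.9, 26.2 and 29.8 CPM in the *Srsf10-kd* livers and at 13.4, 15.0, 23.2 and 14.2 CPM in the *Ctrl* livers. *Ctrl* 3 stood above the other *Ctrl* livers and above *Srsf10-kd* 2. The log2 fold change of *Cav1* was 0.66 (adjusted p = 0.130, edgeR), and without *Ctrl* 3 it was 0.87 (adjusted p = 0.0238, edgeR), past the threshold, in a fit that called 3.47% of all genes. *Acss3*, a mitochondrial synthetase for short-chain acids, was at 18.7, 29.0, 4.07 and 14.6 CPM in the *Srsf10-kd* livers and at 35.5, 46.1, 40.2 and 26.9 CPM in the *Ctrl* livers. Only *Srsf10-kd* 2 reached the range of the *Ctrl* livers. The log2 fold change of *Acss3* was -1.16 (SE 0.45, adjusted p = 0.190, edgeR), and -0.84 without *Srsf10-kd* 3.

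Among 18 nuclear receptors and other regulators of lipid genes, 14 had log2 fold changes below 0 and 4 above, with a median of -0.12. *Ppara* alone passed the adjusted p of 0.05 with edgeR, and 6 were lower and 0 higher at an unadjusted p under 0.05, against 10.6% and 11.2% of all genes. *Hnf4a* (-0.50, adjusted p = 0.155), *Rxra* (-0.48, adjusted p = 0.211) and *Srebf2* (-0.44, adjusted p = 0.222) were among the lower genes by log2 fold change in edgeR, as was *Nr1i2*, which encodes the pregnane X receptor (-0.24, adjusted p = 0.199). *Hnf4a* and *Rxra* passed with limma-voom (adjusted p = 0.0274 and 0.0454) and in edgeR without *Srsf10-kd* 3 and *Ctrl* 3 (adjusted p = 0.0271 and 0.0195), where 8.62% of all genes did. Without *Srsf10-kd* 3 alone, *Rxra* was at -0.35 (adjusted p = 0.369, edgeR). The transcripts of *Hnf4a*, *Rxra* and *Srebf2* are long, at 4362, 4905 and 5077 bases. With the length trend removed, *Hnf4a* was at -0.37, *Rxra* at -0.31 and *Srebf2* at -0.26 (adjusted p = 0.260, 0.389 and 0.433, edgeR). *Ppara* was then at -1.18 (adjusted p = 0.0111, edgeR). *Pparg*, whose product drives *Fabp4* and *Cd36* in adipocytes and fatty hepatocytes, was at 12.3 ± 1.52 and 12.2 ± 2.03 CPM, with a log2 fold change of 0.01. Of 10 genes that respond to PPARγ in steatotic liver, 6 had log2 fold changes above 0 and 4 below, with a median of 0.11, and 0 passed the adjusted p with edgeR. *Lpl*, which encodes lipoprotein lipase, had a log2 fold change of 0.52 (adjusted p = 0.180, edgeR), and *Fitm2*, a lipid droplet gene, one of -0.32 (adjusted p = 0.161, edgeR) without overlap of the groups.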

How the data were processed

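Liver RNA of 4 *Srsf10-kd* and 4 *Ctrl* mice was sequenced as poly(A) libraries. The authors aligned the reads with STAR 2.7.7a, per the submitters' processing notes, to GRCm38 and deposited raw counts per gene, which are whole numbers and not normalized. The annotation release, the strand setting and any read filter are not given in the sources used here. Counts were analysed in R 4.3.3 with edgeR 4.0.16 (TMM, filterByExpr, quasi-likelihood test on condition alone, two-sided, Benjamini-Hochberg over 15491 genes, threshold 0.05). The study used DESeq2, and DESeq2 1.42.0 and limma 3.58.1 (voom with sample quality weights) were alternatives. Intervals are 95% t intervals of the fitted log2 fold change. Log2 levels and correlations used a prior count of 2, and single genes had an exact permutation test over 70 assignments. No source says which mice shared a cage or were processed together. The p-values measure the spread between these livers. No 2 columns were duplicates, with a lowest chi-square per degree of freedom of 51.0 over 28 pairs. Other alternatives were DESeq2 size factors, library size only, no filter, a minimum of 10 counts in each liver, a block for the replicate number, livers left out, and lowess trends (span 0.5) on transcript length removed. Positions and lengths of the longest coding transcript came from GENCODE M21, which holds 45143 of 45706 identifiers, and promoter sequences from RefSeq. All 10 members were named, and from each list of other genes up to 5 per direction by log2 fold change, among those with an unadjusted p under 0.05 and a log2 CPM of 1 or more on average. For likeness, the 3 genes with the highest Pearson r were found per member, and the first is named, with all 3 for *Fabp4*. Shares on merged exon length and marker sums without 1 gene were added after the data were seen. *Fabp6*, *Nr1i2*, the marker genes, *Pparg*, *Slc27a5* and the genes overlapping members were named after their values were seen. The members and lists were chosen with earlier results of these data known. The code was tested on simulated counts. Reads, polyadenylation sites and human samples were not analysed here. A gene that the naming rule selects from the lists is not reported here.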

Additional observations from a re-analysis of the deposited data

Results flagged for a closer look

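In 6 of 84 groups of 4 livers examined, 1 liver stood apart from the other 3 by Dixon's 95% criterion, which sets the gap to the nearest other liver against the group's range, where chance gives about 1 in 20 groups, or 4.2. None of these 6 was a group of the 10 genes. The groups examined covered only part of the genes of the lists, so the count depends on the genes taken. *Srsf10-kd* 4 stood apart for *Adipoq* (2.21 CPM against 0.14 to 0.37 in the other *Srsf10-kd* livers), *Plin1* (1.07 CPM against 0.04 to 0.19) and *Retn* (0.855 CPM against 0 to 0.06), and it had the most *Fabp4* of the 8 livers. The adipocyte markers *Cfd*, *Lep*, *Adrb3* and *Cidec* were highest in other livers. *Srsf10-kd* 3 stood apart for *Acbd6* (37.7 CPM against 24.5 to 25.7) and *Rxra* (240 CPM against 361 to 376). *Ctrl* 3 stood apart for *Cav1* (23.2 CPM against 13.4 to 15.0).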

How the results depend on the processing

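None of the 10 genes was called in any alternative except *Fabp4* with DESeq2, which made the number called 1. Of all genes, 11 were called as designed, 890 with DESeq2, 1814 with limma-voom, 46 with no filter, 6 with the length trend removed, 1342 without *Srsf10-kd* 3 and *Ctrl* 3 together, and 0 to 544 with 1 liver left out (64 without *Srsf10-kd* 3, 544 without *Ctrl* 3, and 0 without *Srsf10-kd* 1, 2 or 4 or *Ctrl* 2, where 3450, 3656, 2768 and 2154 genes had an unadjusted p under 0.05). The cause of these differences was not tested.

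With the replicate number as a block, 59 genes and 0 of the 10 were called, and *Cd36* turned to 0.036. Same-numbered livers had correlations of -0.18, 0.21, 0.27 and 0.22 of their deviations from the group means. Livers with different numbers were not compared in this way, so these values cannot tell paired livers from unpaired ones. The main fit had no block because no source ties the numbers to shared animals or days.

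Log2 fold changes turned in sign with limma-voom for *Slc27a2* (0.0398) and *Acsl5* (0.0085), and with the length trend removed for *Cd36* (0.0309), *Fabp1* (-0.16), *Fabp2* (-0.0814) and *Acsl5* (0.0033). *Cd36* ranged from -0.23 to 0.19 with 1 liver left out, above 0 without *Srsf10-kd* 1 (0.06), *Srsf10-kd* 4 (0.03), *Ctrl* 1 (0.02) or *Ctrl* 2 (0.19). *Fabp4* ranged from 0.57 to 0.99 over the livers left out, with adjusted p from 0.0407 to 0.323 over all alternatives. The differences in family share between the groups moved by less than 1 SD in all 90 recomputed values, while the shares themselves depend on the length taken. Counting error is small at these depths, so the number of livers limits the precision.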
